A study of Mus musculus with 12 samples.

Results

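The genes described here are 34 genes of the endoplasmic reticulum (ER) that fold, export or degrade secretory proteins or that sense unfolded proteins, out of 19938 genes measured. They were taken by symbol, with 1 probe set per gene, and all 34 of the 34 listed genes had one. Levels are log2 microarray values, so a difference of 1 is a doubling. The samples were 12 arrays of total RNA from KY-1 and KY-2, mouse lines of natural killer (NK) cells, which are innate lymphocytes that kill target cells and secrete cytokines. Both lines carry the genotype p53KO and grew in cRPMI with human IL-15 at 200 U/mL. The control vector encoded green fluorescent protein (GFP), and the Myb vector encoded GFP-P2A-FLAG-Myb, in which a self-cleaving peptide joins GFP to a tagged Myb. GFP+ cells were sorted after transduction. Myb is a transcription factor of blood progenitors, and the series asked how its overexpression changes NK cells. The groups were KY-1 with GFP (3 arrays), KY-1 with Myb (4 arrays), KY-2 with GFP (2 arrays) and KY-2 with Myb (3 arrays). Each line is a single line, so a difference between the lines is a difference between these 2 cultures and not between kinds of NK cell.

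Secreted and membrane proteins enter the ER through the Sec61 channel, where chaperones, glycan-binding lectins and disulfide isomerases fold them. Proteins that fail to fold are sent back to the cytosol and destroyed by the proteasome, a route called ER-associated degradation. When unfolded proteins accumulate, the sensors Ern1 (IRE1), Eif2ak3 (PERK) and Atf6 start the unfolded protein response. IRE1 splices Xbp1 mRNA into the form that encodes an active factor, Atf6 is cut to release a transcription factor, and PERK slows translation and raises Atf4. NK cells use the same machinery to make granzymes, perforin and cytokines.

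Promoter sequence was looked at first, because a shared element ties many of these genes to the response. The ER stress response element (ERSE; CCAAT, any 9 bases, then CCACG) is the known site of NF-Y and Atf6. RefSeq promoter windows of GRCm38.p6, from 250 bases before to 50 bases after each start, were given for 29 of the 34 genes, matched by symbol. Both strands were searched. The element was found in 9 of those 29 genes (31%), and in 37 of 27025 genes with a window (0.137%). The genes were Hspa5, Hsp90b1, Calr, Canx, Pdia6, Dnajc3, Creld2, Derl3 and Syvn1. All 34 genes were listed as genes of the ER and its stress response, to which this element is already tied. The higher share thus goes with the choice of the genes and is not a test. The 250 bases before the start are shown for the chief chaperone of the ER, for a gene that was higher in KY-2 and for a gene that was lower in KY-2, with the element in capitals. Where it lies on the opposite strand it reads as its reverse complement, CGTGG first and ATTGG last.
Hspa5 (chr2:34771840-34772089, + strand): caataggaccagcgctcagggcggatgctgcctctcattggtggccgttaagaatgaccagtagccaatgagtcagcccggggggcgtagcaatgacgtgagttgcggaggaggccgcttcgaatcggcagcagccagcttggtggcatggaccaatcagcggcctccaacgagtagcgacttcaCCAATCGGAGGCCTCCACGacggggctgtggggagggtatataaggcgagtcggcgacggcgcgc
Pdia6 (chr12:17266339-17266588, + strand): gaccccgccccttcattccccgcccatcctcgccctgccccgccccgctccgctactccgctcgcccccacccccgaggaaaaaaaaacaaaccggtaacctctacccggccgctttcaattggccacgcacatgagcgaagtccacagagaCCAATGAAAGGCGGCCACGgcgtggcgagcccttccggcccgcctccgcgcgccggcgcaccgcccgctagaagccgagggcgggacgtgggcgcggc
Creld2 (chr15:88819396-88819645, + strand, element on the opposite strand): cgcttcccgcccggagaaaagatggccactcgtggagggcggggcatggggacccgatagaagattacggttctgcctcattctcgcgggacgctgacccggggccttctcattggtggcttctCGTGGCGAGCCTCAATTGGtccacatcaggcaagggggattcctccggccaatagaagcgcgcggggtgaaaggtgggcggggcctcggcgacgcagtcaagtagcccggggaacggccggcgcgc

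The other matches are shown with 10 bases on each side, so that the fixed ends and the variable 9-base spacer can be compared. The 9-base spacer differs from gene to gene, and Hsp90b1 holds 2 copies.
Calr (chr8:84847065-84847103, - strand, element on the opposite strand): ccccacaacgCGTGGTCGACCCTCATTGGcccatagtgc
Derl3 (chr10:75893232-75893270, + strand, element on the opposite strand): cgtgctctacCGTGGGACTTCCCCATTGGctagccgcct
Hsp90b1 (chr10:86705628-86705666, - strand): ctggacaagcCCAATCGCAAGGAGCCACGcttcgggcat
Hsp90b1 (chr10:86705523-86705561, - strand, element on the opposite strand): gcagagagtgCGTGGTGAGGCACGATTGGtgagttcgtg
Canx (chr11:50325790-50325828, - strand): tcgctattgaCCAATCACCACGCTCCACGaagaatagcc
Dnajc3 (chr14:118937817-118937855, + strand): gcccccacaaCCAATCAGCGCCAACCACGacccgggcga
Syvn1 (chr19:6046522-6046560, + strand): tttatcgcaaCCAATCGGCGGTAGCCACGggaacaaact

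A related element, ERSE-II (ATTGG, any 1 base, then CCACG), was found in 2 of the 29 genes, Herpud1 and Dnajb11 (6.9%, against 0.0444% of all genes with a window). The core of the unfolded protein response element that Xbp1 is known to bind (TGACGTGG) was found in Txndc5 and Txndc11 (6.9%, against 0.714%). The letters AACNG, a core of Myb sites, were found in 25 of the 29 windows (86.2%), against 82.4% of all genes with a window, so most promoters hold them. These are matches of letters and were not measured as bound. As with the ERSE, the shares of ERSE-II and of the Xbp1 core are not a test, because the genes were listed for this response.

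The label of the vector was checked first on Myb itself. Its level was 7.94 and 8.04 in the KY-1 GFP replicates and 9.59, 9.57 and 9.54 with the Myb vector, a 2.99-fold difference (log2 1.58 ± 0.08 SE, adjusted p = 3.89e-06). In KY-2 it was 5.0 and 5.10 with GFP and 9.80, 9.67 and 9.75 with Myb, a 25.7-fold difference (4.69 ± 0.08 SE, adjusted p = 1.06e-10). The Myb replicates of both lines lay between 9.54 and 9.80, while the GFP replicates lay apart. The KY-2 GFP replicates lay below the array medians of 5.31 to 5.42, so the size of the KY-2 fold is uncertain. Among the KY-1 arrays, GFP 1 and 2 and Myb 3 and 4 differed by far less than other arrays of a group, so each pair was averaged and counted as 1. This left 2 GFP and 3 Myb replicates per line. Nothing in the labels tells whether replicates were grown apart, so the p-values below reflect the scatter of these samples alone, and that scatter may be technical.

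The cells were checked against markers. Of 12 NK cell genes measured, 10 lay above 7 in every group, with granzyme Gzmb between 12.2 and 12.34. The exceptions were the transcription factor gene Eomes, below 7 in KY-1, and the NK receptor gene Ncr1, which was at 9.72 in KY-1 with GFP and 5.43 in KY-2 with GFP. T cell genes stood apart between the lines. In KY-2, 3 of 11 T cell genes lay above 8 with either vector, against 0 of 11 in KY-1, led by Cd3g (4.62 in KY-1 and 12.30 in KY-2 with GFP) and Cd8a (4.95 in KY-1 and 10.36 in KY-2 with Myb). The summed level of the T cell genes was 8.65 to 8.67 and 8.89 to 9.01 in KY-1 with GFP and with Myb, and 12.96 to 13.06 and 12.74 to 12.82 in KY-2. Cd3e, a defining gene, stayed at 6.22 or below in every group. The summed level of the mast cell and basophil genes went the other way, at 10.53 to 10.68 in KY-1 and 8.61 to 8.87 in KY-2. Only Kit among these 10 genes lay above 7 in every group. With either vector, 3 of the 10 were called lower and 0 higher in KY-2, where 28.9% (GFP) and 31.6% (Myb) of all genes were called. Plasma cells, which carry the largest ER of any blood cell, were checked too. Their joining chain gene Jchain was at 3.29 or below in every group, and 1 of 8 plasma cell genes, Slamf7, which NK cells also express, lay above 8. Above 7 lay 1 of 8 in KY-1 with either vector, 3 in KY-2 with GFP and 2 in KY-2 with Myb. At an adjusted p under 0.05, 2 plasma cell genes were higher and 2 lower in KY-2 than in KY-1 with GFP. With Myb, 1 was higher and 0 were lower. The part of these plasma cell genes in the ER gene differences was not tested. None of 9 B cell genes lay above 7.

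The Myb vector moved none of the 34 ER genes past the threshold in either line. In limma's test, 0 of 34 genes had an adjusted p under 0.05 in KY-1, where 1.22% of all genes did (0.612% higher, 0.612% lower). It was 0 of 34 in KY-2, where 2.83% of all genes did (1.28% higher, 1.55% lower). At an unadjusted p under 0.05 there were 3 of 34 genes in each line, against 2192 and 2630 of the 19938 genes. The average of both lines (3.1% of all genes called, 1.52% higher) and the difference between the lines' Myb effects (0.843% of all genes, 0.461% higher) also held 0 of 34, with 4 and 5 genes at an unadjusted p under 0.05. The median difference over the 34 genes was 0.070 in KY-1 and -0.016 in KY-2, beside -0.001 and 0.011 over all genes. Single genes ran from -0.12 to 0.35 in KY-1 and from -0.21 to 0.22 in KY-2.

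How large a change could have been is given here gene by gene, from the scatter of these samples, which may be technical. The intervals are not adjusted for looking at 34 genes. The 95% interval of the Myb effect lay inside ±0.5 log2 for 31 of 34 genes in KY-1 and for 34 of 34 in KY-2. The widest limits reached -0.52 and 0.53 in KY-1 and -0.43 and 0.41 in KY-2. For the difference between the lines' effects, 23 of 34 intervals lay inside ±0.5. The number of GFP replicates, 2 per line, limits this precision.

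**Figure D1:**
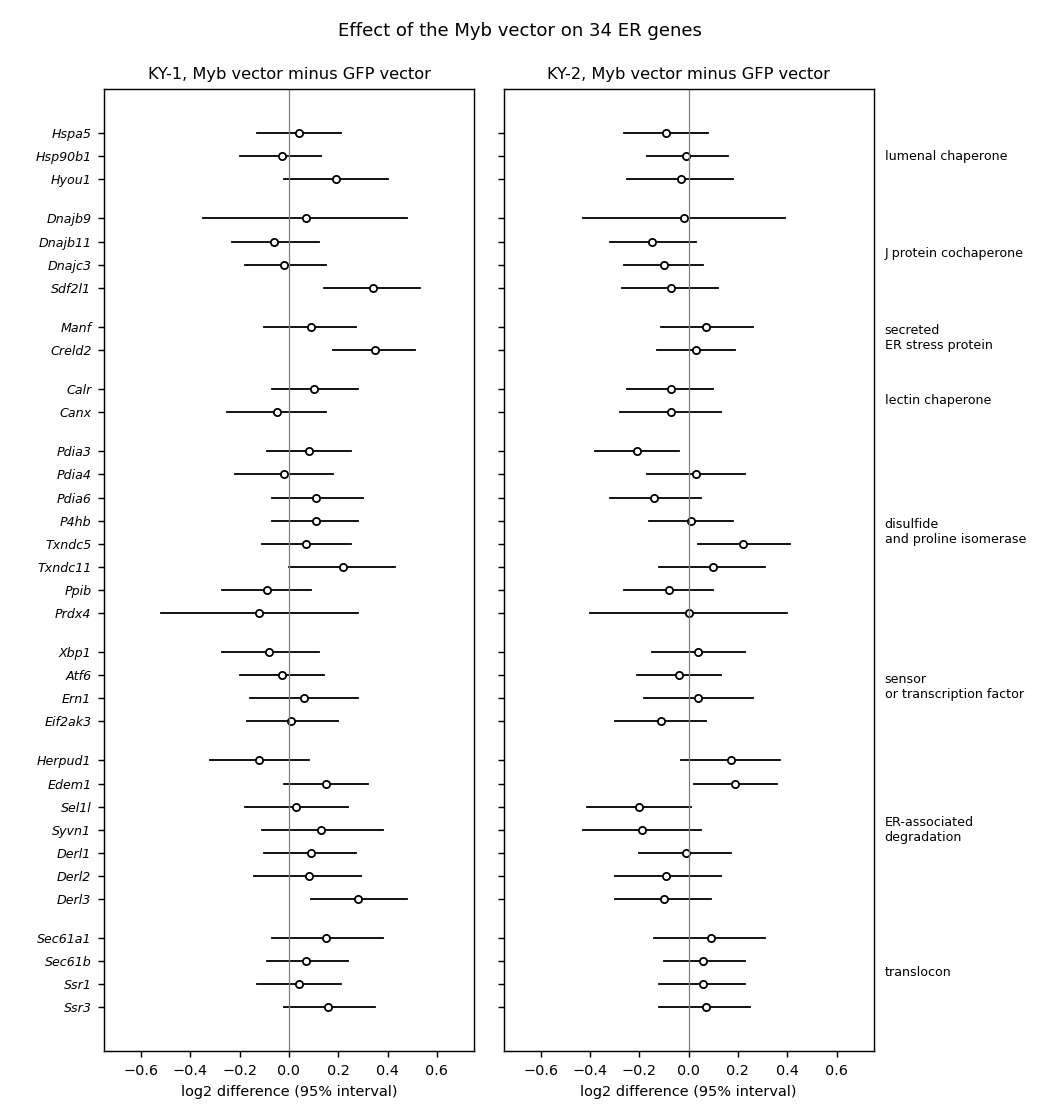
Myb effect on each of the 34 ER genes in KY-1 (left) and KY-2 (right), as the log2 difference Myb minus GFP on the x axis, with 95% intervals from limma (2 GFP and 3 Myb replicates per line). Genes are grouped by role, open circles mark genes that did not pass adjusted p under 0.05, and all 34 are open in both lines, with values from -0.12 to 0.35 in KY-1 and from -0.21 to 0.22 in KY-2.

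Hspa5 (BiP) is the Hsp70 chaperone of the ER lumen and the usual marker of the unfolded protein response. Its level was 11.32 and 11.39 with GFP and 11.46, 11.41 and 11.31 with Myb in KY-1. In KY-2 it was 11.38 and 11.30 with GFP and 11.23, 11.26 and 11.25 with Myb. The KY-1 groups overlapped, and the KY-2 Myb replicates all lay just below the GFP ones. The differences were 0.04 ± 0.08 (SE, 95% interval -0.13 to 0.21, adjusted p = 0.919) in KY-1 and -0.09 ± 0.08 (-0.26 to 0.08, adjusted p = 0.713) in KY-2. Both intervals include 0.

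Hsp90b1 (GRP94), the Hsp90 of the ER that folds integrins and Toll-like receptors, was not called either. Its KY-1 levels were 11.92 and 11.87 with GFP and 11.94, 11.81 and 11.84 with Myb, and its KY-2 levels were 12.05 and 12.08, then 12.08, 12.05 and 12.03. The groups overlapped in both lines, with differences of -0.03 ± 0.08 (SE, adjusted p = 0.936) and -0.01 ± 0.08 (adjusted p = 0.985). Hyou1 (GRP170), which exchanges nucleotide on BiP, differed by 0.19 ± 0.10 in KY-1 and -0.03 ± 0.10 in KY-2, neither past the threshold.

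Of the sensors and factors, 0 of 4 passed in any Myb comparison, and their differences within a line lay between -0.11 and 0.06. Xbp1, the target of IRE1 splicing, was at 8.35 and 8.38 with GFP and 8.31, 8.27 and 8.28 with Myb in KY-1. In KY-2 it was at 8.53 and 8.44 with GFP and 8.39, 8.65 and 8.53 with Myb. The KY-1 groups did not overlap by a narrow margin, and the KY-2 groups overlapped. The differences were -0.08 ± 0.09 (SE, adjusted p = 0.83) and 0.04 ± 0.09 (adjusted p = 0.917). A level per gene does not separate spliced from unspliced Xbp1, nor does it show cleavage of Atf6 or phosphorylation of PERK, so the activity of the 3 sensors was not measured.

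The genes nearest the threshold in KY-1 were Creld2, Sdf2l1 and Derl3, given here by rule as the 3 smallest p-values. Creld2, a secreted ER stress protein with a disulfide isomerase-like activity, was at 9.01 and 8.96 with GFP and 9.28, 9.36 and 9.35 with Myb. The groups did not overlap, and the difference was 0.35 ± 0.07 (SE, 1.27-fold, 95% interval 0.18 to 0.51, adjusted p = 0.0551). Over 20 alternative settings the difference stayed between 0.32 and 0.37, with adjusted p from 0.00285 to 0.31, and 4 of the settings passed the threshold.

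Sdf2l1, which works with the ER J proteins to keep client proteins soluble, was at 8.28 and 8.50 with GFP and 8.75, 8.70 and 8.73 with Myb in KY-1. Its groups did not overlap either, and the difference was 0.34 ± 0.09 (SE, adjusted p = 0.123). Over the 20 alternatives it ran from 0.22 to 0.45, with adjusted p from 0.0082 to 0.543, and 4 passed. Derl3, a derlin that takes part in moving misfolded proteins out of the ER, was at 5.02 and 5.28 with GFP and 5.42, 5.43 and 5.45 with Myb. Its difference was 0.28 ± 0.09 (SE, adjusted p = 0.228), at a level close to the array medians of 5.31 to 5.42. Over 19 alternatives the Derl3 difference ran from 0.15 without KY-1 GFP replicate 1+2 to 0.41 without KY-1 GFP replicate 3, with adjusted p from 0.0356 to 0.707, and 1 passed.

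The KY-2 differences of these 3 genes lay between -0.10 and 0.03. Creld2 was at 8.70 and 8.74 with GFP and 8.73, 8.80 and 8.72 with Myb there. Sdf2l1 was at 8.87 and 8.98, then 8.79, 8.88 and 8.88. Derl3 was at 5.34 and 5.39, then 5.30, 5.27 and 5.21. The Myb effect in KY-2 minus that in KY-1 was -0.32 ± 0.11 for Creld2, -0.41 ± 0.12 for Sdf2l1 and -0.38 ± 0.12 for Derl3 (SE). None of these tests of the difference passed (adjusted p = 0.285, 0.22 and 0.269), so a difference between the lines was not shown for any of them.

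In KY-2 the 3 smallest p-values belonged to Pdia3, Txndc5 and Edem1. Pdia3 (ERp57), the isomerase that works with calnexin and calreticulin on glycoproteins and sits in the MHC class I loading complex, was at 10.73 and 10.77 with GFP and 10.47, 10.59 and 10.56 with Myb. The groups did not overlap, and the difference was -0.21 ± 0.08 (SE, adjusted p = 0.236). In KY-1 it was at 10.47 and 10.49, then 10.60, 10.50 and 10.59. The KY-2 GFP replicates were thus the highest of the 4 groups.

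Txndc5, a thioredoxin-domain isomerase, was at 8.14 and 7.94 with GFP and 8.25, 8.29 and 8.26 with Myb in KY-2, a difference of 0.22 ± 0.08 (SE, adjusted p = 0.248). Without KY-2 GFP replicate 2 that difference was 0.13 and without replicate 1 it was 0.32, with adjusted p from 0.0786 to 0.729 over 20 alternatives. In KY-1 Txndc5 was at 8.27 and 8.25, then 8.38, 8.27 and 8.33. Edem1, a lectin that hands mannose-trimmed glycoproteins to degradation, was at 8.33 and 8.19 with GFP and 8.38, 8.49 and 8.48 with Myb in KY-2. The Edem1 difference was 0.19 ± 0.08 (SE, adjusted p = 0.319) in KY-2 and 0.15 ± 0.08 (adjusted p = 0.542) in KY-1. The KY-2 value for Edem1 was 0.12 without KY-2 GFP replicate 2 and 0.26 without replicate 1 (adjusted p from 0.112 to 0.735 over 20 alternatives). With both lines averaged, the 3 smallest p-values were those of Creld2 (0.19, adjusted p = 0.0961), Edem1 (0.17, adjusted p = 0.166) and Txndc5 (0.15, adjusted p = 0.279).

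By role, the Myb differences had these signs. The 4 translocon genes, Sec61a1 and Sec61b of the channel and Ssr1 and Ssr3 of the translocon-associated complex, were positive in both lines, from 0.04 to 0.16 in KY-1 and from 0.06 to 0.09 in KY-2, also under both other scalings, and none passed. Of the 7 degradation genes, 6 were positive in KY-1 and 2 in KY-2. Of the 8 genes of the isomerase group, in which Prdx4 was counted, 5 were positive in KY-1 and 4 in KY-2. Both lectins and all 4 genes of the J protein group, in which Sdf2l1 was counted, were negative in KY-2, at no less than -0.15. Over all 34 genes, 24 were positive in KY-1 and 14 in KY-2 (13 to 16 with the other scalings), which is a count of signs and not of changes. Of all 19938 genes, 9882 were positive in KY-1 and 10573 in KY-2. Among the 4175 genes with a mean level of at least 8, it was 2010 and 1842. The groups' arrays did not overlap for 10 of 34 genes in KY-1 (9 higher with Myb, 1 lower), where 19% of all genes did not overlap (9.16% higher, 9.88% lower). In KY-2 they did not overlap for 16 of 34 genes (5 higher, 11 lower), where 31% of all genes did not (16.4% higher, 14.6% lower). Sums of such small offsets were not tested.

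The lines themselves differed far more than the vectors did. With the GFP vector, 18 of 34 ER genes differed between KY-2 and KY-1, 9 higher and 9 lower in KY-2. Over all genes, 28.9% differed in that comparison (13.6% higher and 15.2% lower). With the Myb vector, 16 of 34 differed, 6 higher and 10 lower in KY-2, and over all genes 31.6% did (14.7% higher, 16.9% lower). These 2 comparisons share no arrays. Arrays of the lines did not overlap for 30 of 34 ER genes with GFP and 23 of 34 with Myb, beside 57.4% and 39.9% of all genes. ER genes are bright, and bright genes pass more often. Among the 4175 genes with a mean level of at least 8, 50.6% passed with GFP and 55.5% with Myb. Among the 28 ER genes at that level, 15 and 12 passed. The share of ER genes that differed was thus near that of other bright genes with GFP and below it with Myb, a gap that was not tested. The median difference over the 34 genes was 0.108 with GFP and -0.025 with Myb, beside -0.039 and -0.014 over all genes. In bulk RNA, fewer expressing cells and less RNA per cell cannot be told apart.

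The lines' differences matched between the vectors for 13 genes. Higher in KY-2 with both vectors were Canx, Pdia6, Txndc11, Dnajb11 and Sec61b. Lower with both were Prdx4, Pdia4, Dnajc3, Creld2, Atf6, Eif2ak3, Edem1 and Sel1l. No gene was called in opposite directions. A further 5 genes were called with GFP only and 3 with Myb only. Whether the line difference changes with the vector is the same test as the difference of the Myb effects, in which 0 of 34 passed, so no gene was shown to differ between the lines with 1 vector and not the other. These 13 are 72.2% of the ER genes called with GFP and 81.2% of those called with Myb, beside 78.7% and 71.8% over all genes. They are 38.2% of the 34 genes, beside 22.7% of all genes and 43.3% of genes with a mean level of at least 8 that were called the same way in both. With each comparison fitted on its own arrays alone, 14 and 15 genes passed, and 12 did so in both. Of all 19938 genes, 5359 and 5843 passed in these fits, and 4103 (20.6%) did so the same way in both. Of the called genes not fixed by the naming rule, all are named here for completeness, after their values were seen.

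**Figure D2:**
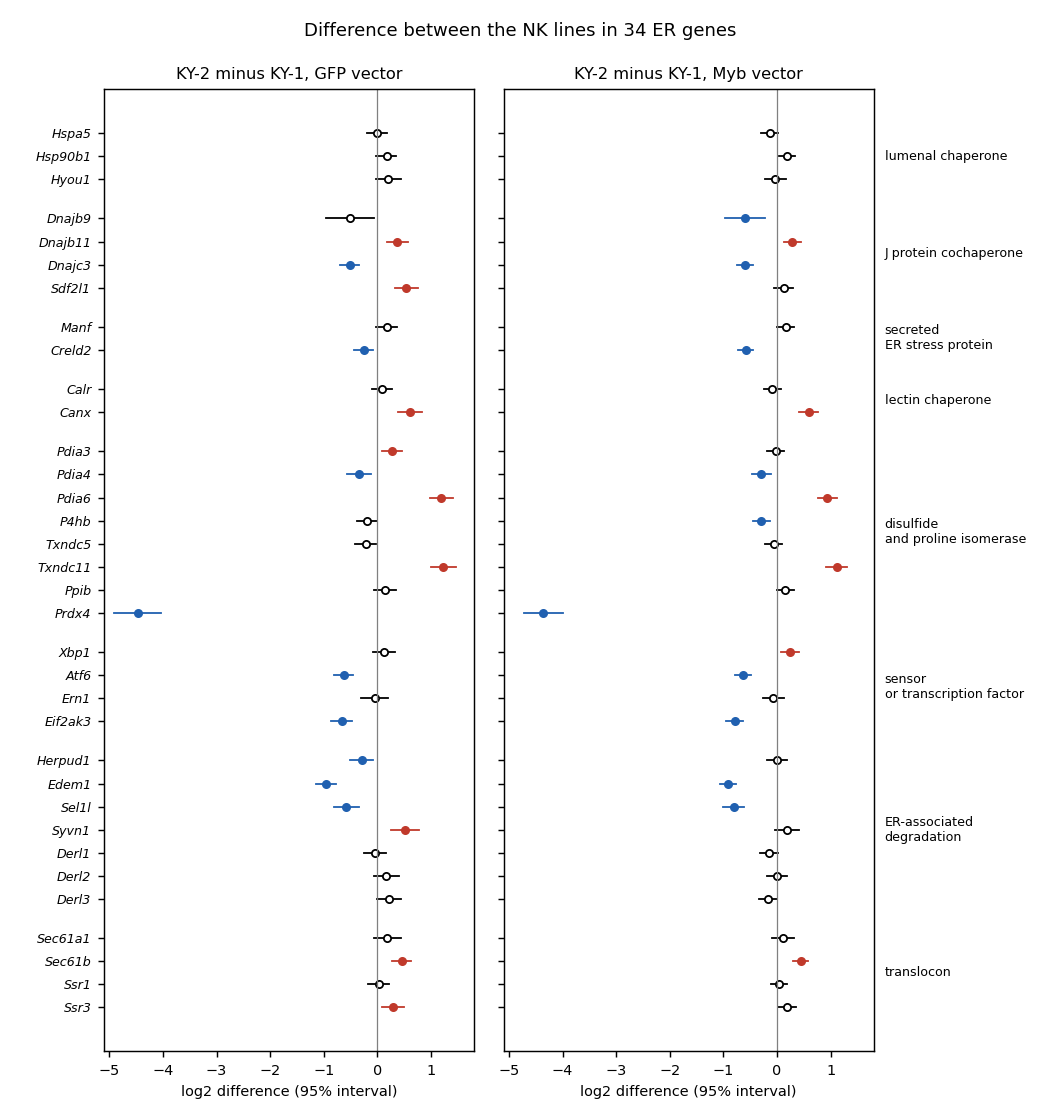
Difference between the lines for each of the 34 ER genes, as log2 KY-2 minus KY-1 on the x axis, with the GFP vector (left) and the Myb vector (right) and 95% intervals from limma. Filled red and blue circles mark genes higher and lower in KY-2 at adjusted p under 0.05 (18 and 16 genes), open circles mark the rest, and Prdx4 stands alone at -4.47 and -4.36.

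None of the 3 lumenal chaperones was called between the lines. Hspa5 in KY-2 minus KY-1 was -0.01 ± 0.09 (SE, 95% interval -0.20 to 0.17, adjusted p = 0.932) with GFP. The Myb comparison gave -0.14 ± 0.07 (-0.30 to 0.01, adjusted p = 0.148). Hsp90b1 differed by 0.17 ± 0.08 (adjusted p = 0.169) and 0.19 ± 0.07 (adjusted p = 0.0521), and its replicates in KY-2 all lay above those in KY-1. Hyou1 differed by 0.20 and -0.03.

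Among the lectin chaperones, which hold newly made glycoproteins in the folding cycle, the membrane-bound Canx (calnexin) was higher in KY-2 and the soluble Calr (calreticulin) was not called. Canx was at 10.82 and 10.88 in KY-1 with GFP and 11.48 and 11.44 in KY-2 with GFP. With Myb it was at 10.91, 10.84 and 10.65 in KY-1 and 11.47, 11.37 and 11.32 in KY-2. The lines did not overlap, and the differences were 0.61 ± 0.10 (SE, adjusted p = 0.00083) and 0.59 ± 0.08 (adjusted p = 0.000219). Calr differed by 0.09 with GFP and -0.09 with Myb (adjusted p = 0.493 and 0.424).

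The isomerase group, in which the peroxiredoxin Prdx4 was counted, held the largest differences in both directions. On the lower side this was Prdx4 alone. Pdia4, the next lowest of the group with GFP (-0.35), differed less than the degradation gene Edem1 (-0.96). Prdx4, the peroxiredoxin of the ER that uses hydrogen peroxide to drive disulfide formation, was at 8.44 and 7.99 in KY-1 with GFP and at 8.02, 7.88 and 8.40 with Myb. In KY-2 it was at 3.70 and 3.79 with GFP and at 3.53, 3.69 and 4.01 with Myb. Every KY-2 value lay below the array medians of 5.31 to 5.42, and every KY-1 value above them. The difference was -4.47 ± 0.20 (SE, 22.2-fold, adjusted p = 2.73e-08) with GFP and -4.36 ± 0.16 (20.5-fold, adjusted p = 4.95e-09) with Myb. No detection calls come with the values, so how much of the KY-2 signal is background is unknown, and so is the true fold.

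Pdia6 (P5), an isomerase that binds BiP and is known to regulate IRE1 signalling, was at 10.45 and 10.59 in KY-1 with GFP and 11.71 and 11.72 in KY-2 with GFP. The Myb replicates were at 10.67, 10.71 and 10.52 in KY-1 and 11.59, 11.56 and 11.58 in KY-2. The lines stood apart by 1.19 ± 0.09 (SE, 2.28-fold, adjusted p = 2.87e-06) and 0.94 ± 0.08 (1.92-fold, adjusted p = 2.93e-06). Its promoter, printed above, holds the ERSE, as does that of Hspa5, which did not pass in either comparison.

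Txndc11, a membrane thioredoxin-domain protein that works with EDEM proteins, was at 6.55 and 6.50 in KY-1 and 7.68 and 7.83 in KY-2 with GFP. The Myb replicates were at 6.85, 6.60 and 6.77 in KY-1 and 7.76, 7.95 and 7.83 in KY-2. The lines did not overlap, with differences of 1.23 ± 0.11 (SE, 2.34-fold, adjusted p = 7.09e-06) and 1.11 ± 0.09 (2.16-fold, adjusted p = 2.5e-06). Edem1 went the other way, as given below.

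The remaining isomerases differed less. Pdia4 (ERp72) was lower in KY-2 by both comparisons, at -0.35 ± 0.10 (SE, adjusted p = 0.0218) with GFP and -0.30 ± 0.08 (adjusted p = 0.0155) with Myb. A dimmer Pdia4 probe set gave -0.94 and -0.75, the same direction at a larger size. The Pdia4 call with GFP was lost without KY-1 GFP replicate 3 or without either KY-2 GFP replicate, and with Myb without KY-1 Myb replicate 1, with values between -0.64 and -0.24 over all alternatives. Pdia3 was higher in KY-2 with GFP only by call (0.27 ± 0.08, adjusted p = 0.0305). That Pdia3 call was lost in 6 of 20 alternatives, among them leaving out any 1 of the 4 GFP replicates (adjusted p up to 0.138). With Myb it differed by -0.02 (adjusted p = 0.844). P4hb, the classical protein disulfide isomerase, was lower in KY-2 with Myb by call (-0.30 ± 0.07, adjusted p = 0.00676), and with GFP it differed by -0.20 (adjusted p = 0.11). Ppib (cyclophilin B) and Txndc5 were not called.

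The J protein cochaperones, which load clients onto BiP, and Sdf2l1, which works with them, split by gene. Dnajb11 (ERdj3), which binds unfolded proteins, was higher in KY-2 by 0.37 ± 0.09 (SE, adjusted p = 0.00708) with GFP and 0.28 ± 0.07 (adjusted p = 0.00929) with Myb, where median centring of the arrays ended the call (adjusted p = 0.0641). Dnajc3 (p58IPK), known as an inhibitor of PERK, was lower by -0.52 ± 0.08 (adjusted p = 0.000568) and -0.60 ± 0.07 (adjusted p = 3.43e-05). Dnajc3 was at 10.72 and 10.77 in KY-1 and at 10.23 and 10.22 in KY-2 with GFP, and with Myb at 10.76, 10.68 and 10.74 against 10.18, 10.11 and 10.09, with no overlap. Dnajb9 (ERdj4), a repressor of IRE1, was called lower with Myb (-0.60 ± 0.17, adjusted p = 0.0174), and with GFP it differed by -0.51 ± 0.20 (adjusted p = 0.0878). Dnajb9 was also the gene with the largest spread, at 7.55 and 6.95 in KY-1 with GFP, and its call was lost without KY-1 Myb replicate 3+4, KY-2 Myb replicate 1 or KY-2 Myb replicate 3. Sdf2l1 was higher in KY-2 with GFP (0.54 ± 0.10, adjusted p = 0.00138), and with Myb it differed by 0.13 (adjusted p = 0.269).

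Of the secreted ER stress proteins, Creld2 was lower in KY-2 and Manf was not called. Creld2 differed by -0.26 ± 0.08 (SE, adjusted p = 0.0313) with GFP and -0.58 ± 0.07 (adjusted p = 4.47e-05) with Myb, with no overlap of replicates in either. The call with GFP was lost in 5 of 20 alternatives, among them leaving out any 1 of the 4 GFP replicates (adjusted p up to 0.147). Manf, a secreted partner of BiP, differed by 0.17 and 0.16.

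Both Atf6 and Eif2ak3, sensors of the response, were lower in KY-2. Atf6 was at 8.78 and 8.71 in KY-1 and 8.15 and 8.07 in KY-2 with GFP. With Myb it was at 8.77, 8.66 and 8.70 in KY-1 and 8.10, 8.04 and 8.08 in KY-2. The lines did not overlap, with differences of -0.63 ± 0.08 (SE, adjusted p = 0.000163) and -0.64 ± 0.07 (adjusted p = 2.55e-05).

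Eif2ak3 was at 7.98 and 8.09 in KY-1 and 7.44 and 7.30 in KY-2 with GFP. The KY-1 and KY-2 Myb replicates were at 8.14, 8.02 and 7.98 and at 7.26, 7.25 and 7.26. Again the lines did not overlap, with differences of -0.67 ± 0.09 (SE, adjusted p = 0.000213) and -0.79 ± 0.07 (adjusted p = 9.76e-06). The third sensor gene, Ern1, differed by -0.05 with GFP and -0.07 with Myb and was not called. Xbp1 was called higher in KY-2 with Myb (0.24 ± 0.08, adjusted p = 0.037), a call lost in 12 of 20 alternatives, and differed by 0.12 ± 0.10 (adjusted p = 0.407) with GFP.

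Degradation genes held calls mostly toward lower levels in KY-2. Edem1 was at 9.25 and 9.19 in KY-1 and 8.33 and 8.19 in KY-2 with GFP, and with Myb at 9.37, 9.36 and 9.38 against 8.38, 8.49 and 8.48. The lines did not overlap, with differences of -0.96 ± 0.09 (SE, 1.94-fold, adjusted p = 8.26e-06) and -0.92 ± 0.07 (1.89-fold, adjusted p = 1.88e-06). Sel1l, the adaptor that holds the Hrd1 ubiquitin ligase complex together, was at 8.51 and 8.61 in KY-1 and 8.08 and 7.89 in KY-2 with GFP. With Myb it was at 8.72, 8.55 and 8.51 in KY-1 and 7.72, 7.78 and 7.85 in KY-2. It was lower by -0.58 ± 0.10 (SE, adjusted p = 0.00151) and -0.81 ± 0.09 (adjusted p = 2.34e-05), without overlap.

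The ligase itself, Syvn1 (Hrd1), was higher in KY-2 with GFP (0.51 ± 0.12, adjusted p = 0.00741), opposite to its adaptor, and with Myb it differed by 0.19 (adjusted p = 0.185). That Syvn1 call was lost without KY-1 GFP replicate 1+2 or KY-2 GFP replicate 1. Herpud1, which docks on the same complex, was called lower with GFP (-0.29 ± 0.10, adjusted p = 0.0457), a call lost in 11 of 20 alternatives, and it was not called with Myb (adjusted p = 0.987). The derlins Derl1, Derl2 and Derl3 were not called in either comparison, with differences from -0.17 to 0.21.

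All 4 translocon genes had positive differences in both comparisons, from 0.02 to 0.45 with GFP and from 0.03 to 0.44 with Myb, but 3 of 4 did after a second quantile normalization or median centring. Sec61b, the beta subunit of the channel, was at 11.54 and 11.49 in KY-1 and 11.99 and 11.93 in KY-2 with GFP. With Myb it was at 11.55, 11.58 and 11.62 in KY-1 and 12.07, 12.03 and 11.97 in KY-2. It was higher in KY-2 by 0.45 ± 0.08 (SE, adjusted p = 0.00165) and 0.44 ± 0.07 (adjusted p = 0.000398), and its other probe sets gave 0.43 to 0.44 and 0.40 to 0.42. Ssr3 was called with GFP (0.29 ± 0.09, adjusted p = 0.039), a call lost in 6 of 20 alternatives, and differed by 0.19 with Myb (adjusted p = 0.0847). Sec61a1 and Ssr1 were not called.

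**Figure D3:**
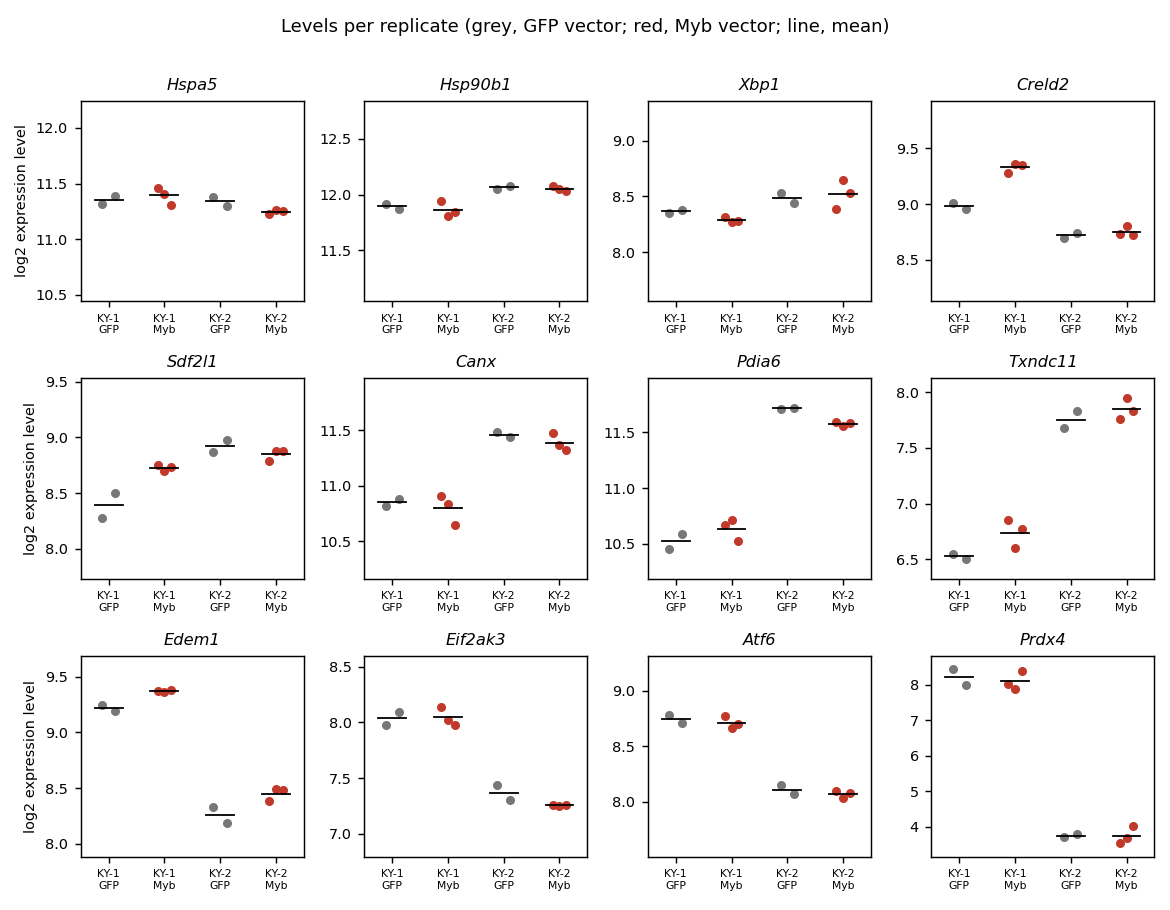
Log2 level of 12 of the ER genes in each replicate (y axis; each panel has its own range), with the GFP vector in grey, the Myb vector in red and the group mean as a line (2 GFP and 3 Myb replicates per line). Hspa5 and Xbp1 lie close in all 4 groups. The KY-1 Myb replicates of Creld2 and Sdf2l1 lie above the KY-1 GFP ones, and neither gene passed the threshold. Prdx4 lies at 7.88 or above in KY-1 and at 4.01 or below in KY-2.

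Of the 9 genes with the ERSE, 0 were called for Myb in either line, beside 1.22% of all genes in KY-1 and 2.83% in KY-2. Their Myb differences were positive for 6 and negative for 3 in KY-1, and positive for 1 and negative for 8 in KY-2. These are counts of signs, which were not tested. Of all 19938 genes, 9882 were positive in KY-1 and 10573 in KY-2, and of the 4175 with a mean level of at least 8, 2010 and 1842. Between the lines 3 of the 9 ERSE genes were higher (Canx, Pdia6 and Syvn1) and 2 lower (Dnajc3 and Creld2) in KY-2 with GFP. With Myb, 2 were higher and 2 lower. Of the 20 genes with a window and no ERSE, 6 were higher and 6 lower with GFP, and 4 higher and 7 lower with Myb. Over all genes, 28.9% were called between the lines with GFP and 31.6% with Myb. Among genes with a mean level of at least 8 these shares were 50.6% and 55.5%. Whether the element goes with a line difference was not tested. In the same comparisons the summed level of T cell genes was higher and that of mast cell genes lower in KY-2, as given above, and their part in the ER gene differences was not tested.

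Myb effects that passed the test were found in some related genes outside the 34. Over all genes, 1.22% passed in KY-1, 2.83% in KY-2 and 3.1% in the average of both lines. Whether the lists below differ from these shares was not tested. Markers of cell types moved in the same comparisons. Of the 12 NK cell genes, 2 were lower with Myb in KY-1, Ncr1 (-1.96 ± 0.17 SE, adjusted p = 0.000227) and the receptor gene Klrb1c (-0.58 ± 0.07, adjusted p = 0.00301). In KY-2, 3 were lower, led by the perforin gene Prf1 (-0.82 ± 0.09, adjusted p = 0.000484), with Il2rb and Klrd1 (calls lost in 8 and 13 of 20 alternatives). Of the 11 T cell genes, 1 was higher in KY-1, Cd3g (2.52 ± 0.21, adjusted p = 0.000167), and in KY-2 Lat and Trat1 were higher (0.50 and 0.71) and Cd3d and Cd8a lower (-0.73 and -0.64). All 4 of these KY-2 calls were lost without KY-2 GFP replicate 1 (adjusted p up to 0.131 over the alternatives), and those of Lat and Trat1 also without replicate 2. Of the 10 mast cell and basophil genes, 2 were higher in KY-1, Mcpt8 (1.76 ± 0.17, adjusted p = 0.000508) and Cpa3 (1.1 ± 0.21, adjusted p = 0.0331, lost in 4 of 19 alternatives), and 0 in KY-2. Slamf7 was lower in both lines (-0.62 and -0.36), the KY-1 call being lost without KY-1 GFP replicate 3 and the KY-2 call in 13 of 20 alternatives. The myeloid gene S100a9 was lower in KY-1 (-0.46, lost in 12 of 19). Every replicate of S100a9 and Trat1 lay below the array medians of 5.31 to 5.42, as did the KY-1 GFP replicates of Cd3g and Cpa3. The sizes of these differences are thus uncertain. None of the 9 B cell genes was called in either line. The summed level of the NK cell genes was 14.74 to 14.77 with GFP and 14.62 to 14.70 with Myb in KY-1, and 14.56 to 14.61, then 14.39 to 14.42 in KY-2. The part of these markers in the Myb effects below was not tested.

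Of 13 genes of the PERK and Atf4 arm, which is known to raise amino acid supply and, when prolonged, cell death factors, 0 were called in KY-1 and 2 were called higher in KY-2. At an unadjusted p under 0.05 in limma there were 2 in KY-1, 4 in KY-2 and 7 in the average, against 2192, 2630 and 2760 of 19938 genes. The median difference of the 13 was 0.034 in KY-1 and 0.156 in KY-2, beside -0.001 and 0.011 over all genes. The list as a whole was not tested. Nupr1, a stress-induced chromatin protein, was at 7.40 and 7.56 with GFP and 8.24, 8.25 and 8.10 with Myb in KY-2, a difference of 0.72 ± 0.09 (SE, adjusted p = 0.000789). In KY-1, Nupr1 was at 9.53 and 9.53, then 9.28, 9.38 and 9.30 (-0.21 ± 0.09, adjusted p = 0.392). The 2 Myb effects on Nupr1 differed by 0.93 ± 0.12 (adjusted p = 0.00348). Asns (asparagine synthetase) was higher with Myb in KY-2, going from 10.18 and 10.21 to 10.58, 10.63 and 10.59 (0.41 ± 0.08, adjusted p = 0.0275, lost in 6 of 20 alternatives). Atf4 itself differed by 0.13 in KY-1 and 0.23 in KY-2 and was not called (adjusted p = 0.583 and 0.157). Cebpb, a partner of Atf4 and Ddit3, was called only in the average of both lines (0.36 ± 0.08, adjusted p = 0.031, lost in 7 of 19 alternatives).

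Of 33 other ER folding and redox genes, 1 was called higher in KY-1, and 1 higher and 1 lower in KY-2. The gene called in both lines was Ero1a, the oxidase that recharges protein disulfide isomerase. It was at 9.46 and 9.39 with GFP and 9.78, 9.82 and 9.87 with Myb in KY-1, and at 9.38 and 9.39, then 9.68, 9.82 and 9.75 in KY-2. No replicates overlapped, and the differences were 0.40 ± 0.08 (SE, adjusted p = 0.0367) and 0.37 ± 0.08 (adjusted p = 0.03). Averaged over the lines, Ero1a was higher by 0.38 ± 0.06 (adjusted p = 0.00287), a call kept in all 19 alternatives, whereas the single-line calls were lost in 11 and 7 of 20. Its paralog Ero1b, whose promoter window holds an ERSE, was lower with Myb in KY-2 (7.15 and 7.37, then 6.78, 6.85 and 6.76, a difference of -0.46 ± 0.10, adjusted p = 0.0318, lost in 7 of 20 alternatives). In the average, Dnajb14, a J protein of the ER membrane, was also called higher (0.39 ± 0.09, adjusted p = 0.0356, lost in 8 of 19 alternatives).

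Of 22 other degradation genes, 1 was higher and 1 lower with Myb in KY-2 and 0 were called in KY-1. Ubac2, a membrane protein of ER-associated degradation, was at 8.33 and 8.32 with GFP and 8.78, 8.94 and 9.03 with Myb in KY-2 (0.59 ± 0.10, adjusted p = 0.0077), and that call was lost without either KY-2 GFP replicate. Edem3, a relative of Edem1, was at 8.06 and 7.82 with GFP and 7.43, 7.56 and 7.50 with Myb in KY-2 (-0.44 ± 0.09, adjusted p = 0.0247, lost in 4 of 20 alternatives). None of the 10 Atf6 and Creb3 family factors and proteases, 21 translocation genes, 11 oligosaccharyltransferase genes or 23 ER to Golgi transport genes was called for Myb in either line. At an unadjusted p under 0.05 these 4 lists held 1, 3, 2 and 2 genes in KY-1 and 0, 1, 0 and 1 genes in KY-2.

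Outside the ER, 0 of 24 cytosolic chaperone genes were called in either line, with Hspa4l higher in the average (0.26 ± 0.05, adjusted p = 0.021, lost in 6 of 19 alternatives). Of 8 cell death genes linked to ER stress, 2 were lower with Myb in KY-2. The BH3-only gene Bcl2l11 (Bim) went from 7.97 and 7.93 to 7.63, 7.58 and 7.61 (-0.34 ± 0.07, adjusted p = 0.0287, lost in 7 of 20 alternatives). Casp12, an ER-associated caspase of rodents, went from 5.03 and 5.12 to 4.63, 4.67 and 4.45, all below the array medians (-0.49 ± 0.11, adjusted p = 0.0387, lost in 10 of 20).

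Between the lines, the neighbouring pathways were mixed in direction as well. Over all genes, 28.9% were called with GFP and 31.6% with Myb, and whether the lists differ from these shares was not tested. Of the 33 folding and redox genes, 12 were higher and 7 lower in KY-2 with GFP, and 12 higher and 9 lower with Myb. Pdia5, a further disulfide isomerase, was lower by -2.46 ± 0.14 (SE, adjusted p = 2.74e-07) and -2.55 ± 0.12 (adjusted p = 2.89e-08). Fkbp7, a proline isomerase of the ER, was higher by 1.79 ± 0.10 (adjusted p = 1.86e-07) and 1.81 ± 0.08 (adjusted p = 2.3e-08). Of the 13 PERK and Atf4 genes, 2 were higher and 5 lower with GFP, and 1 higher and 5 lower with Myb, with Nupr1 lower by -2.05 ± 0.09 (adjusted p = 3.28e-08) and -1.12 ± 0.08 (adjusted p = 7e-07). Of the 22 degradation genes 5 were higher and 4 lower in each comparison, among them Ubac2 lower (-1.58 ± 0.11 and -1.11 ± 0.09) and Ube2j1, a ubiquitin-conjugating enzyme of the ER membrane, higher (0.79 ± 0.09 and 1.02 ± 0.07).

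Of the 10 Atf6 and Creb3 family genes, 0 were higher and 1 lower with GFP, and 0 higher and 2 lower with Myb. The gene lower in both was Nfya, a subunit of the NF-Y factor that binds the ERSE (-0.76 ± 0.09, adjusted p = 6.47e-05, and -0.68 ± 0.07, adjusted p = 2.54e-05). Translocation genes were called higher and lower at 4 and 2 of 21 with GFP and 5 and 4 with Myb, and oligosaccharyltransferase genes at 2 and 2 of 11 and 2 and 5. Of 23 transport genes, 7 were higher and 3 lower with GFP, and 6 higher and 8 lower with Myb, with the COPII GTPase gene Sar1b higher by 1.20 ± 0.09 (adjusted p = 1.46e-06) and 0.97 ± 0.07 (adjusted p = 1.22e-06). Of the 24 cytosolic chaperones, 4 were higher and 2 lower, then 4 higher and 3 lower, led by the Hsp70 cochaperone Bag3 (2.27 ± 0.16, adjusted p = 1.02e-06, and 2.33 ± 0.13, adjusted p = 1.13e-07). Of the 8 cell death genes, 2 were higher with GFP, and 2 higher and 2 lower with Myb, with Casp12 higher in both (2.0 ± 0.12 and 1.48 ± 0.10). All Casp12 levels lay below the array medians, so the size of its difference is uncertain, as for Prdx4.

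**Figure D4:**
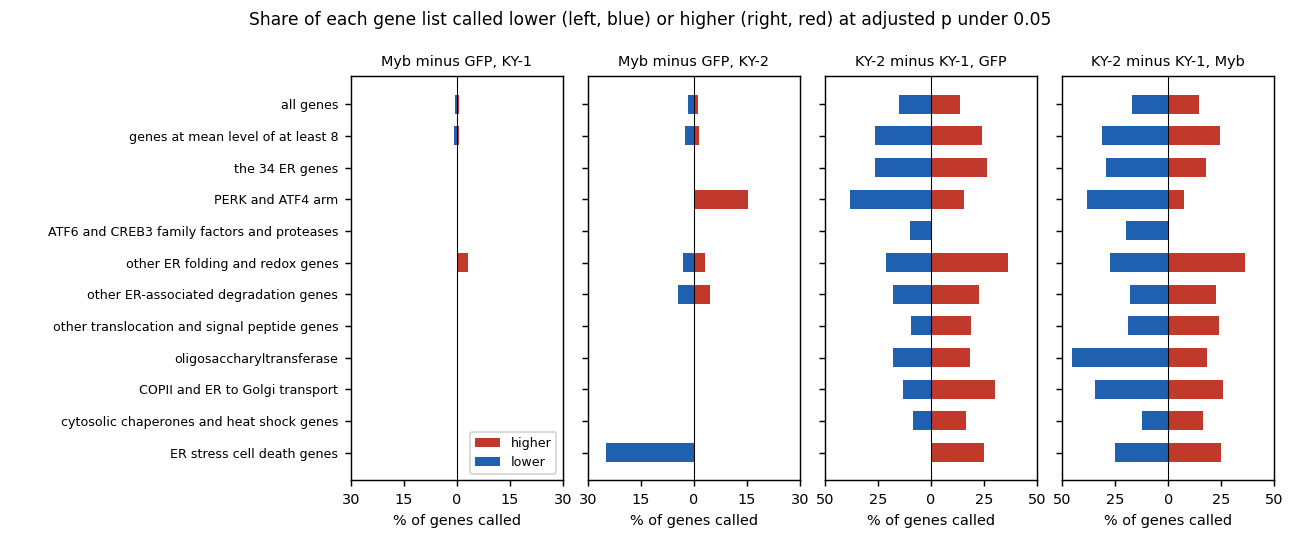
Share of each gene list called higher (red, right) or lower (blue, left) at adjusted p under 0.05 in limma, in percent of the list's genes on the x axis (0 to 30 for the Myb comparisons, 0 to 50 for the lines). The 34 ER genes have no bar in either Myb panel. Between the lines with GFP their bars are close to those of genes with a mean level of at least 8. Between the lines with Myb their bar for higher genes is shorter (6 of 34, beside 1021 of 4175).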

How the data were processed

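Total RNA of 12 samples was measured on single-colour Affymetrix arrays. The deposited values are log2 expression per probe set, and the submitters' processing notes list RMA and Partek. RMA subtracts a modelled background, quantile-normalizes and combines the probes of a set, which can compress changes of dim genes. Options and versions: not given in the sources used here. The number of arrays limits the precision.

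Of 35556 probe sets, 21789 were paired with 1 symbol in the platform annotation, 1621 with several, and 12146 had no symbol there. The brightest probe set per gene was used, which left 19938 genes, and none was filtered. Arrays KY-1 GFP 1 and 2 and KY-1 Myb 3 and 4 differed with a robust SD of 0.0434 to 0.0469, against 0.102 to 0.172 for other pairs of a group, so each pair was averaged, which left 10 replicates.

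Groups were compared with limma 3.58.1 in R 4.3.3, as 1 model of the 4 group means with 6 residual and 4.89 prior degrees of freedom. P-values were adjusted by Benjamini-Hochberg over all genes, with a threshold of 0.05. The scripts were tested on simulated data. The genes and lists were chosen with earlier results of these data known. Values per replicate are given for Hspa5, Hsp90b1 and Xbp1, for the 3 smallest p-values of each Myb comparison and for the 6 smallest of each line comparison, and up to 3 genes were named per further list and comparison. Replicate values of Canx, Dnajc3, Sec61b and the related genes called for Myb, and the markers named, were chosen after their values were seen. Promoter windows came from RefSeq (GRCm38.p6). Alternatives were a filter on dim genes, 2 further normalizations, other moderation, other handling of the arrays, a replicate block and leaving out each replicate.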

Additional observations from a re-analysis of the deposited data

Results flagged for a closer look

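The Myb effect differed between the lines for the genes given here, by a test of the difference itself. For Myb, the effect in KY-2 minus that in KY-1 was 3.11 ± 0.11 on the log2 scale (SE, adjusted p = 3.84e-07), with GFP levels of 7.99 in KY-1 and 5.05 in KY-2. For Nupr1 it was 0.93 ± 0.12 (adjusted p = 0.00348), with a Myb effect of 0.72 in KY-2 and -0.21 in KY-1, where only the first passed. The rest are markers of cell types. The NK cell genes were Ncr1 (1.86 ± 0.24, adjusted p = 0.00365) and Prf1 (-1.0 ± 0.13, adjusted p = 0.00319). Among T cell genes, Cd3g gave -2.63 ± 0.30 (adjusted p = 0.00161), Cd3d gave -0.84 ± 0.15 (adjusted p = 0.0297) and Lat gave 0.67 ± 0.12 (adjusted p = 0.0316), and the calls of Cd3d and Lat were lost in 8 of 19 and 8 of 18 alternatives. The basophil gene Mcpt8 gave -1.93 ± 0.24 (adjusted p = 0.00309). Beside array medians of 5.31 to 5.42, the KY-2 replicates lay at 3.86 to 4.35 for Mcpt8 and at 5.08 to 5.79 for Ncr1. A lower level with Myb could hardly be seen there. Cd3g in KY-1 with GFP (5.08 and 4.16) and Myb in KY-2 with GFP (5.0 and 5.10) also lay below these medians. The sizes of these differences are thus uncertain. No group of 4 or more replicates was available to look for single samples that stand apart.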

How the results depend on the processing

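No ER gene that was called changed direction under any alternative run. With all 12 arrays as separate replicates, 3 ER genes were called for Myb in KY-1 and 2 in the average of both lines. With a filter on genes with a mean of at least 6, 2 were called in KY-1 and 2 in the average. With trended moderation, 2 were called in KY-1, 1 in KY-2 and 2 in the average. Replicate numbers did not pair the samples (correlations of deviations from -0.47 to 0.12), and the replicate block on all 12 arrays called 2 in KY-1, 0 in KY-2, 18 between the lines with GFP and 15 with Myb. Leaving out 1 replicate at a time called 0 to 0 ER genes in each of the 4 Myb comparisons, 12 to 18 between the lines with GFP and 14 to 15 with Myb. The lowest count with GFP, 12 against 18, came without KY-2 GFP replicate 1. Over the other settings the counts were 14 to 21 with GFP and 14 to 20 with Myb. For most of these settings the share of all genes called is not given here. The counts thus show how calls of ER genes depend on the setting, and not whether ER genes differ from other genes. The 2 replicates in each GFP group limit the precision.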

Other observations

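The large difference in Prdx4 led to its family and its neighbours on the X chromosome, which were looked up after its values were seen. Prdx3, the mitochondrial peroxiredoxin, was higher in KY-2 by 1.42 ± 0.11 (SE, 2.68-fold, adjusted p = 3.36e-06) with GFP and 1.22 ± 0.09 (2.32-fold, adjusted p = 1.8e-06) with Myb, opposite in direction to Prdx4. Prdx2, of the cytosol, was called higher with Myb (0.42 ± 0.09, adjusted p = 0.00272) and differed by 0.21 with GFP (adjusted p = 0.164). Prdx1 differed by -0.01 and 0.06 (adjusted p = 0.978 and 0.612). Of the neighbouring genes, Sat1 was higher in KY-2 with both vectors (0.57 ± 0.14, adjusted p = 0.0109, and 0.80 ± 0.12, adjusted p = 0.00028). Acot9 (0.51 and 0.37) and Ptchd1 (0.35 and 0.20) were not called. No lower level in KY-2 was measured at these 3 neighbours. Ptchd1 lay between 4.09 and 4.44 over the 4 groups, below the array medians of 5.31 to 5.42. A lower level could hardly be seen there. The cause of the Prdx4 difference was not tested.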
